A study of Mus musculus with 4 samples.

Results

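The regenerating islet-derived (Reg) lectins of mouse small-intestinal crypts were described from the rows of both deposited tables whose symbol was Reg3b, Reg3g, Reg3a, Reg1 or Reg4. These were 5 genes, each present in both tables, among 25522 genes listed without and 26085 genes listed with tetracycline. The 5 names were selected on the deposited fasting changes and levels, which were known when the list was made, so these changes are given as a description and support nothing beyond themselves. The remaining Reg family genes of the tables, Reg2 and Reg3d, are given after them.

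RNA was sequenced from epithelial cells of small-intestinal crypts. The mice were C57BL/6J males, 9 weeks old. The labels list 4 groups with 1 sample each: fed mice and mice fasted for 24 hours, both without tetracycline, and fed and fasted mice that had received this antibiotic for 21 days. Crypts were released with a chelating buffer and broken up with trypsin, and the library kit did not keep the strand. The question of the design is how the antibiotic alters the difference between the fed and the fasted state. No column states the direction of a change, and the word order in the names of the tables was taken to mean fasted over fed.

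Reg proteins are small secreted proteins built around a C-type lectin domain. Reg3b and Reg3g are made mainly by enterocytes and Paneth cells, bind bacterial surfaces and help to keep bacteria away from the gut lining, and their transcription responds to interleukin-22 through STAT3 and to bacterial signals through MyD88. Reg1 and Reg4 are better known for links to epithelial growth and repair, and Reg4 is known in the small intestine as a marker of enteroendocrine cells. Whether a lower value comes from fewer cells of a type or from less RNA in each cell cannot be told apart in bulk tissue.

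On the mouse assembly GRCm38, with GENCODE release M21, 4 of the members are protein-coding genes of a cluster on chromosome 6 that holds 6 Reg genes in 98.22 kb. Reg3b lies at chr6:78370657-78373466 on the plus strand, Reg3a at chr6:78380709-78383827 on the plus strand, Reg1 at chr6:78422711-78428667 on the plus strand and Reg3g at chr6:78466269-78468872 on the minus strand. Reg3d (chr6:78375874-78378865, minus strand) and Reg2 (chr6:78395623-78408106, plus strand) lie between them, and Reg4 stands alone at chr3:98222156-98236748 on the plus strand. The principal transcripts of Reg3b and Reg3g were identical at 71.89% of 747 aligned bases, and those of Reg3b and Reg3a at 70% of 770. Near-identical copies can share reads, so words of 31 bases were compared between all transcripts of the 7 Reg genes. Reg3b shared 5 of its 1120 words with Reg3g, and Reg3a, Reg1 and Reg4 shared none with another Reg gene.

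The 250 bases before the RefSeq start of the 3 Reg3 members are shown because Reg3b and Reg3g rose together in fasted crypts without tetracycline while Reg3a fell. Capitals mark matches to the STAT motif TTCNNNGAA and to the TATA box TATAAA, searched on both strands. The sequences are those of RefSeq on GRCm38.p6, read in the direction of the gene, at chr6:78370635-78370884 for Reg3b, chr6:78468875-78469124 for Reg3g and chr6:78380459-78380708 for Reg3a.
Reg3b: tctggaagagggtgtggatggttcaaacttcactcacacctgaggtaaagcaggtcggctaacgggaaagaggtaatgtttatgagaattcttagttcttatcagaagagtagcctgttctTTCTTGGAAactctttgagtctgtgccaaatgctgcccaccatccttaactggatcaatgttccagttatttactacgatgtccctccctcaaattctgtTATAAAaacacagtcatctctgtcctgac
Reg3g: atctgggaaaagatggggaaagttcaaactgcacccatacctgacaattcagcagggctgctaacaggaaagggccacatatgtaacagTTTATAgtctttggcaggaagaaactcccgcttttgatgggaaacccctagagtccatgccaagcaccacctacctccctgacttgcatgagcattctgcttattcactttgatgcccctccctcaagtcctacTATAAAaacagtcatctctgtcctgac
Reg3a: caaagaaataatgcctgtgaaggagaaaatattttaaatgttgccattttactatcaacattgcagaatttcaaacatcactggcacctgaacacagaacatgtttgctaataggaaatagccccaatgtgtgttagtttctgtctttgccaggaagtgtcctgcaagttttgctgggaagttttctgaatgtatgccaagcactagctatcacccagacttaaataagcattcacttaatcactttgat

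The Reg3b and Reg3g stretches were identical at 70.04% of 247 aligned bases, against 59.18% of 196 for Reg3b and Reg3a and 66.67% of 201 for Reg3g and Reg3a. The STAT letters occurred in Reg3b as TTCTTGGAA, 129 to 121 bases before the start, and in Reg3d, which was rare in all libraries, as TTCCCAGAA, 238 to 230 bases before it. They were not in the windows of the other 5 Reg genes. The same letters occurred in 7.02% of 32851 mouse promoters of this length. TATAAA lay 29 to 24 bases before the start of Reg3b and 27 to 22 bases before that of Reg3g, against 12.4% of all promoters with a match anywhere in the window. Reg3g also held it on the opposite strand at 161 to 156 bases, and Reg1 and Reg2 held it at 30 to 25 bases. The Reg3a window held no match, nor did the 50 bases after its start when read on the gene's strand. The last 9 bases of that window, CACTTTGAT, end 47 bases before the start in Reg3g. A match is a description of letters, and an absent match says nothing of a factor.

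The deposited means resolved to whole counts in 4 libraries per table, 2 fasted and 2 fed, although each group has a single labelled sample. Which library belongs to which label is unknown, so they are given as single values without an SD, and whether they came from separate mice is not stated. Values are normalized counts (counts divided by the library's size factor), and on each side the library with the larger size factor is numbered 1. How often 2 libraries of a side separate from the other 2 over all genes was not counted. A separation or an overlap of libraries is therefore given as a description only. Size factors lay between 0.930 and 1.09 without and between 0.727 and 1.27 with tetracycline. The labelled cell type was checked against markers, and 14 of 14 enterocyte, 14 of 14 Paneth cell and 8 of 8 stem cell genes were listed with a mean of at least 1 in both tables. So were 12 of 12 lymphocyte, 9 of 9 myeloid and 8 of 8 stromal genes, so a listing does not tell the epithelium from other cells. The fasted libraries of a table stood apart from each other in their enterocyte genes in both tables and in their Paneth cell genes with tetracycline.

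Reg3b showed the strongest fasting change of the family in both tables. Without tetracycline the fasted libraries held 476482 and 119524 normalized counts of Reg3b and the fed libraries 10036 and 15168. With tetracycline the fasted libraries held 12148 and 89297, and the fed libraries 3281 and 3799. Both fasted libraries lay above both fed libraries in each table, the lower fasted one 7.88-fold above the higher fed one without and 3.20-fold with tetracycline. The fasted libraries themselves differed 3.99-fold and 7.35-fold, while the fed ones differed 1.51-fold and 1.16-fold.

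In the authors' deposited tables, Reg3b rose by a log2 change of 4.56 (SE 0.91, adjusted p = 0.000112 by DESeq2's Wald test) without tetracycline, a 23.6-fold higher level. With tetracycline the authors' deposited table gave 3.84 (SE 0.78, adjusted p = 0.000415), a 14.3-fold higher level. By these means Reg3b was the gene with rank 34 of all listed genes in abundance without tetracycline and rank 318 with it. Which fasted library entered set much of the size. Leaving out fasted library 1 of the table without tetracycline gave 3.25 and leaving out fasted library 2 gave 5.24, and in the table with tetracycline these values were 4.66 and 1.78.

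Reg3g, which binds the peptidoglycan of Gram-positive bacteria, was higher in fasted than in fed crypts without tetracycline, as Reg3b was, while its groups overlapped with tetracycline. The fasted libraries held 120465 and 28742 normalized counts and the fed ones 7510 and 10323 without tetracycline. With tetracycline the fasted libraries held 1911 and 4180 and the fed ones 2575 and 2329. Without tetracycline both fasted libraries lay above both fed ones, the lower of them 2.78-fold above the higher fed one, whereas with tetracycline the fasted values fell on either side of the fed values.

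The authors' deposited table without tetracycline gave Reg3g a log2 change of 3.06 (SE 0.92, adjusted p = 0.0393 by DESeq2's Wald test), an 8.37-fold higher level in fasted crypts. This value depended on the libraries and on the adjustment, with 1.69 when fasted library 1 was left out and 3.76 when fasted library 2 was left out, and an adjusted p of 0.0554 when all rows with a p-value were adjusted together. With tetracycline the authors' deposited table gave 0.31 (SE 0.50), with a 95% interval from -0.66 to 1.29. Without fasted library 2 of that table the change was -0.36, so its sign rested on that library.

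The signal of enterocytes, the absorptive cells, differed between the same libraries. Summed over the 9 of 14 enterocyte genes whose counts could be resolved, the fasted libraries 1 and 2 held 1196070 and 478022 and the fed ones 463460 and 653331 without tetracycline. With it the fasted ones held 238469 and 1279860 and the fed ones 531361 and 559073. In each table the fasted library with the most Reg3b was the one with the most enterocyte signal. The other fasted library had an enterocyte sum within the fed range without tetracycline and below both fed libraries with it, and its Reg3b lay 7.88-fold and 3.20-fold above the higher fed library.

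Set against the same enterocyte sum, a ratio chosen after the values had been seen, Reg3b of the untreated mice came to 39.8% and 25.0% when fasted and to 2.17% and 2.32% when fed. With tetracycline it came to 5.09% and 6.98% when fasted and to 0.618% and 0.679% when fed. On this scale the fasted libraries of a table lay closer together for Reg3b than in normalized counts. Reg3g without tetracycline came to 10.1% and 6.01% when fasted and to 1.62% and 1.58% when fed. With it the fasted values of Reg3g were 0.802% and 0.327% around fed values of 0.485% and 0.417%, not closer together than in normalized counts. The part of enterocytes in the changes of Reg3b and Reg3g was not tested.

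Reg3a, the remaining Reg3 gene among the members, went the other way. Without tetracycline its fasted libraries held 7039 and 4040 normalized counts and its fed libraries 9554 and 20109, so both fed libraries lay above both fasted ones. With tetracycline the fasted libraries held 3885 and 11289 and the fed libraries 6008 and 8406, and the groups overlapped. The authors' deposited table without tetracycline gave a fall of Reg3a, with a log2 change of -1.42 (SE 0.39, adjusted p = 0.0167), a 2.68-fold lower level. Leaving out fed library 2 brought it to -0.79, and leaving out fasted library 1 brought it to -1.88. With tetracycline the authors' deposited table gave Reg3a 0.07 (SE 0.58), and -0.89 without fasted library 2.

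Markers of other cell types were, like Reg3a, lower in fasted than in fed libraries without tetracycline. The 8 stromal genes summed to 512 and 795 normalized counts in the fasted libraries and to 923 and 2038 in the fed ones, and 3 of the 8 were called lower in the authors' deposited table by DESeq2, against 1.22% of all genes. The 9 myeloid genes summed to 1192 and 1926 when fasted and to 2312 and 4049 when fed, with 1 called lower there. The 12 lymphocyte genes summed to 21212 and 35286 when fasted and to 38768 and 51123 when fed, with 3 called lower there. Fed library 2, the highest in Reg3a, was the highest in each of these sums. With tetracycline, where the Reg3a libraries overlapped, the stromal sums overlapped too (1033 and 475 fasted, 1406 and 770 fed). The lymphocyte sums overlapped as well (59261 and 13306 fasted, 178058 and 48028 fed). The myeloid sums were again lower when fasted (2747 and 691) than when fed (7557 and 3060). In the fasted libraries of each table and the fed ones with tetracycline, the library higher in Reg3a was the lower in each of these sums. Their part in the fall of Reg3a was not tested.

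**Figure D1:**
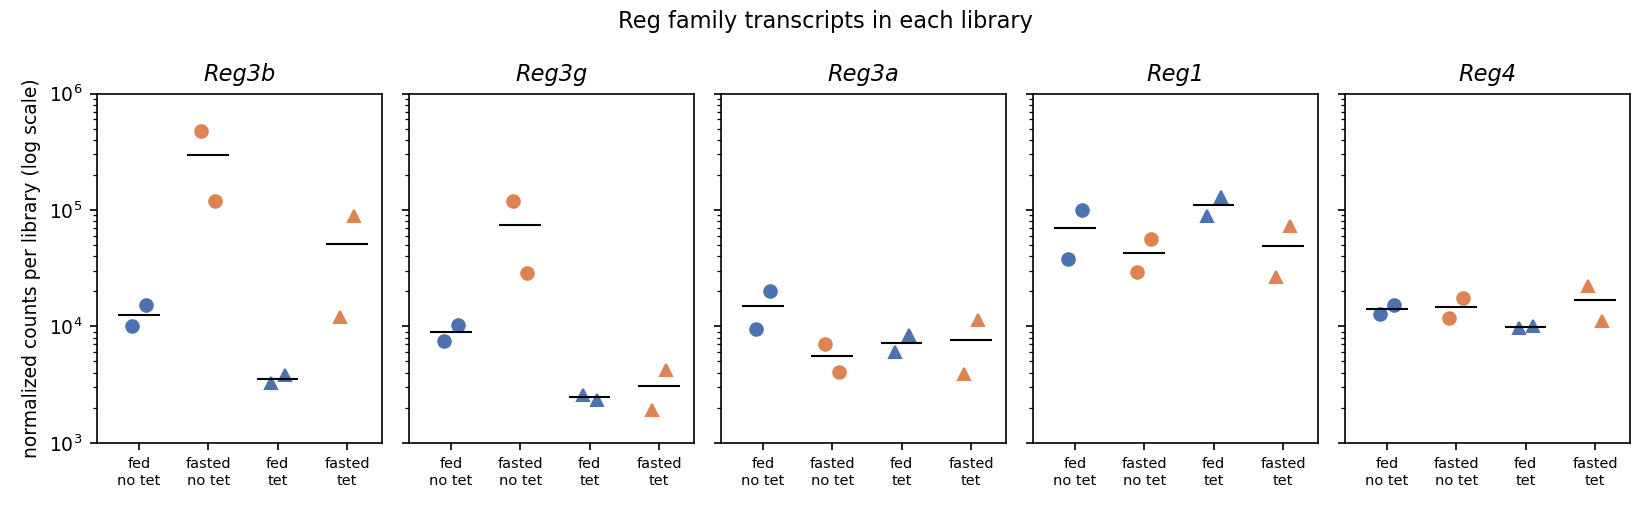
Normalized counts per library (log scale) of the 5 Reg genes in fed (blue) and fasted (orange) libraries, circles without and triangles with tetracycline (tet); black lines mark the mean of the 2 libraries of a side. The fasted libraries of Reg3b lie above the fed ones in both tables, from 119524 to 476482 without and from 12148 to 89297 with tetracycline, whereas those of Reg3g do so only without tetracycline.

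Reg1, a Reg protein known from the pancreas and from regenerating epithelium, was the most abundant of the 5 genes in fed crypts. Its fasted libraries held 29083 and 56512 normalized counts without tetracycline and its fed libraries 38177 and 100748, which overlap. With tetracycline the fasted libraries held 26394 and 72402 and the fed libraries 89340 and 129211, so both fed libraries were higher. In the authors' deposited tables neither difference passed the threshold, with log2 changes of -0.70 (SE 0.44, adjusted p = 0.626) without and -1.15 (SE 0.57, adjusted p = 0.914) with tetracycline. Without fed library 2 of the table without tetracycline the change of Reg1 was 0.16, and without fasted library 2 of the table with tetracycline it was -2.05. Reg1 was the higher in the library of the larger enterocyte sum within the fed libraries of each table and within the fasted ones with tetracycline, but not within the fasted ones without it. Gastric genes, 11 of 13 of which were listed, were also lower in fasted crypts with tetracycline, summing to 1873 and 622 against 3593 and 10308 when fed. Their median log2 change there was -2.98, with 1 called lower in the authors' deposited table by DESeq2, against 0.267% of all genes. Without tetracycline the gastric sums overlapped (701 and 2230 fasted, 1392 and 1605 fed). The 9 myeloid genes were lower in fasted crypts with tetracycline too, summing to 2747 and 691 against 7557 and 3060 when fed. Of these 9 genes 8 had a change below 0 there, with a median of -1.61. The part of gastric and myeloid genes in the values of Reg1 was not tested.

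Reg4 differed least between the groups without tetracycline. Its fasted libraries held 11791 and 17648 normalized counts and its fed libraries 12682 and 15255, which overlap. With tetracycline the fasted libraries held 22302 and 11156 and the fed libraries 9599 and 10090. Both fasted libraries were then the higher ones, the lower of them 1.11-fold above the higher fed one. The authors' deposited tables gave Reg4 log2 changes of 0.08 (SE 0.29, 95% interval -0.50 to 0.65) without and 0.77 (SE 0.47, 95% interval -0.16 to 1.69) with tetracycline, neither past the threshold. Without fasted library 2 the value without tetracycline was -0.24, and without fasted library 1 the value with tetracycline was 0.18. The 15 enteroendocrine genes summed to 44626 and 44154 in fasted against 33216 and 37347 in fed libraries with tetracycline, and to 36794 and 49031 against 46344 and 52494 without it, where the groups overlapped. Without tetracycline 13 of the 15 had a deposited change below 0 in the authors' table, with a median of -0.18 and 1 called lower, against 1.22% of all genes. In fed crypts their median centred log2 ratio of tetracycline over none was -0.49, and their part in the values of Reg4 was not tested.

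Of the 5 members, 3 passed an adjusted p of 0.05 without tetracycline in the authors' deposited table (Reg3b and Reg3g higher, Reg3a lower). Of all 18100 genes with an adjusted p there, 2.27% passed, 1.06% of them higher and 1.22% lower in fasted crypts. With tetracycline 1 of the 5 passed (Reg3b, higher), against 0.6% of 17993 genes, 0.333% being higher. Nothing is read from these shares, because the members were chosen with the changes known. Together the 5 genes made up 0.422% of all mean counts without and 0.199% with tetracycline.

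**Figure D2:**
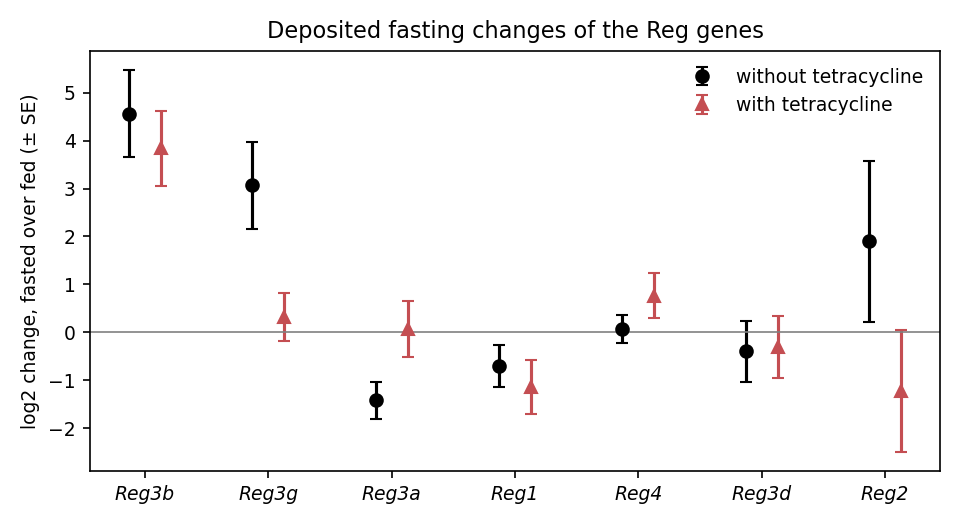
Deposited log2 change, fasted over fed, with its standard error as bars, for the 5 members and for Reg3d and Reg2, in black circles without and red triangles with tetracycline. Reg3b lies at 4.56 and 3.84, Reg3g at 3.06 and 0.31 and Reg3a at -1.42 and 0.07, while the bars of Reg3d and Reg2 reach across or close to 0.

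The other Reg genes were rare. Reg3d held 30.1 to 54.3 normalized counts in the libraries without and 42.7 to 63.6 in those with tetracycline, and its fasted and fed libraries overlapped in both tables. The authors' deposited tables gave it log2 changes of -0.40 (SE 0.64) and -0.30 (SE 0.65). Reg2 rested on counts of 8 and 7 when fasted and of 3 and 1 when fed without tetracycline, and of 6 and 4 against 17 and 10 with it. Both thus stayed far below the 5 members in all 8 libraries.

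Tetracycline was compared next, by the levels of fed crypts in the 2 tables and then by those of fasted crypts. The tables were scaled separately, so the log2 ratio of group means (each raised by 1) was centred on its median over 13194 genes with a mean of at least 50, and no test was made. In fed crypts Reg3b was at 10036 and 15168 normalized counts without and 3281 and 3799 with tetracycline. Fed Reg3g was at 7510 and 10323 without and 2575 and 2329 with it. The libraries did not overlap for either gene, and the centred log2 ratios were -1.85 for Reg3b and -1.88 for Reg3g, levels 3.60-fold and 3.68-fold lower with tetracycline.

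Fed Reg3a and Reg4 were also lower with tetracycline in both libraries than in either library without it, by centred log2 ratios of -1.06 and -0.52. Fed Reg1 had a ratio of 0.64 with overlapping libraries. The fed ratios kept their signs whichever library was left out, between -2.12 and -1.52 for Reg3b, between -2.09 and -1.63 for Reg3g and between -1.50 and -0.42 for Reg3a. Leaving out fed library 2 of the table without tetracycline gave the value nearest to 0 for each of these 3 genes.

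Several marker lists differed between the same fed libraries. The 5 distal small-intestinal genes summed to 39224 and 52421 normalized counts in fed crypts without and to 27910 and 23776 with tetracycline, with no overlap and a median centred log2 ratio of -1.04. The 7 proximal genes summed to 52047 and 78501 without and to 81283 and 92113 with it, also with no overlap and a median ratio of 0.50. Of the goblet cell list, 9 resolved genes summed to 330033 and 459288 without and to 193154 and 261109 with tetracycline, with no overlap and a median ratio of -0.70. The 11 gastric genes summed to 1392 and 1605 without and to 3593 and 10308 with it, with no overlap and a median ratio of 1.28. In fasted crypts the sums of all 4 lists overlapped across the tables. The part of these markers in the tetracycline levels of the Reg genes was not tested.

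In fasted crypts the Reg3b and Reg3g libraries with tetracycline again lay below all of those without it. The gap was far wider for Reg3g, with a centred log2 ratio of -4.68, a 25.7-fold lower level, than for Reg3b with -2.62, a 6.17-fold lower level. The Reg3g libraries were separated 6.88-fold at their nearest and the Reg3b libraries 1.34-fold. Without fasted library 1 of the table without tetracycline the ratios were -3.31 for Reg3g and -1.31 for Reg3b, and without fasted library 2 of the table with tetracycline they were -5.36 and -4.69. For Reg3a, Reg1 and Reg4 the fasted libraries overlapped across the tables, at 0.38, 0.14 and 0.11.

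The same values can be read as a difference of the fasting changes, the change with minus the change without tetracycline. It was -2.75 for Reg3g (SE 1.04, 95% interval -4.80 to -0.71), 1.49 for Reg3a (SE 0.70, interval 0.13 to 2.86) and -0.72 for Reg3b (SE 1.2, interval -3.07 to 1.63). Reg1 had -0.45 (SE 0.72, interval -1.85 to 0.96) and Reg4 0.69 (SE 0.55, interval -0.40 to 1.78). None of the 5 passed when adjusted by Benjamini-Hochberg over the 17571 genes tested, with an adjusted p of 0.999969 for each. With the Wald statistic divided by its robust SD over all genes (0.714), the adjusted p was 0.0887 for Reg3g and 0.407 for Reg3a by Benjamini-Hochberg. Across all genes 4 passed, 0.0228% of those tested, and 185 had an unadjusted p under 0.05. The Wald test used the standard errors of the authors' DESeq2 fits. The interval of Reg3b spans a large loss of its fasting change as well as a gain, so a p that misses the threshold does not show that tetracycline left it alone.

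Because both Reg3 lectins are counted in the same library, their ratio does not depend on the size factor. Per kilobase of principal transcript (783 bases for Reg3b, 771 for Reg3g), Reg3b stood to Reg3g at 1.32 and 1.45 in the fed libraries without tetracycline and at 1.25 and 1.61 in those with it. In fasted libraries the ratio was 3.89 and 4.09 without and 6.26 and 21.0 with tetracycline. All 4 fasted libraries thus held relatively more Reg3b than any of the 4 fed ones, and the fed ratios of the tables overlapped.

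Per kilobase, the order of levels in fed crypts without tetracycline was Reg1, Reg3a, Reg3b, Reg4 and Reg3g, from 90328 down to 11565 normalized counts per kilobase. In fasted crypts it was Reg3b (380591), Reg3g (96762), Reg1 (55653), Reg4 (14417) and Reg3a (6715). Within single libraries, the 2 fed orders differed only in the place of Reg3a, and the 2 fasted orders only in that of Reg3g and Reg1. With tetracycline fed crypts held Reg1 (142101), Reg4 (9642), Reg3a (8736), Reg3b (4521) and Reg3g (3181), and fasted crypts Reg3b (64780), Reg1 (64236), Reg4 (16385), Reg3a (9195) and Reg3g (3950). Within single libraries with tetracycline, the 2 fed orders differed only in that of Reg4 and Reg3a. In both fasted libraries Reg3g was the lowest, and Reg1 lay above Reg4 and Reg3a, whose own order differed. Reg3b lay below Reg1 and Reg4 in fasted library 1 and above all others in fasted library 2. Only the place of Reg3b and Reg4 in fed crypts without tetracycline changed when length was not used.

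As a share of the 5 genes' counts per kilobase, Reg1 took 51.6% and 64.5% in the fed libraries without tetracycline and 82.8% and 85.7% in those with it. Reg3b took 13.3% and 9.54% of the fed libraries without and 2.99% and 2.48% with tetracycline. In fasted libraries the share of Reg3b was 74.0% and 53.4% without and 19.7% and 47.9% with tetracycline. The Reg transcripts of a fed crypt were therefore mostly Reg1, and those of a fasted crypt without tetracycline mostly Reg3b. Reg4 took 27.7% in fasted library 1 with tetracycline and at most 12.9% elsewhere.

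**Figure D3:**
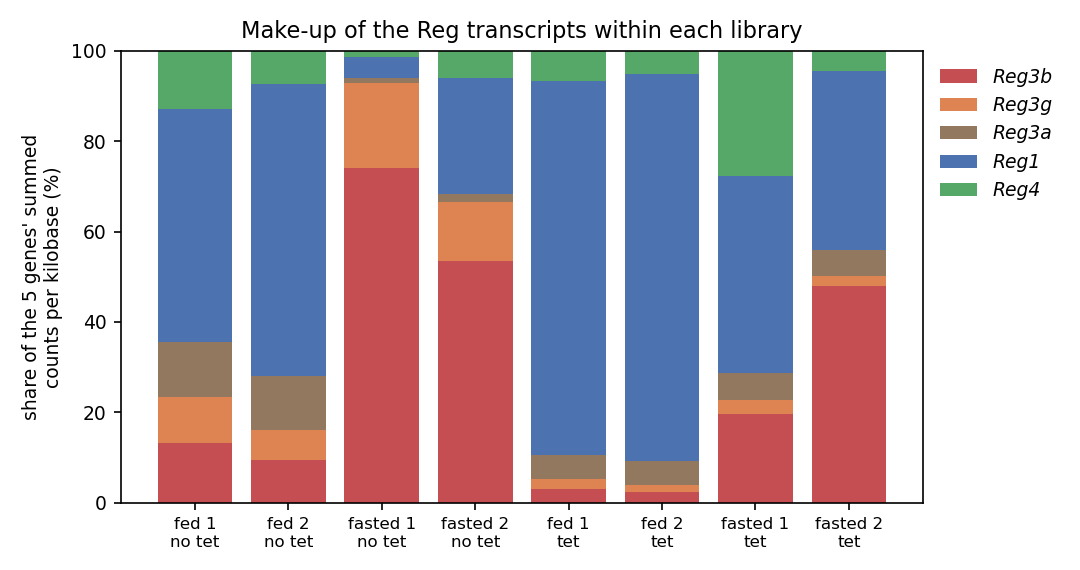
Share (%) of each Reg gene in the summed counts per kilobase of the 5 genes, 1 bar per library, without (no tet) and with (tet) tetracycline. Reg1 fills 82.8% and 85.7% of the fed libraries with tetracycline, and Reg3b fills 74.0% and 53.4% of the fasted libraries without it.

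Paneth cells, the antimicrobial cells of the crypt base, gave another pattern than enterocytes. Their 12 resolved genes summed to 402618 and 503724 (fasted) against 263942 and 226148 (fed) without tetracycline, and to 901566 and 156759 (fasted) against 223419 and 266976 (fed) with it. The fasted library with the highest Paneth sum was also the one highest in Reg4, at 22302, and the one lowest in Reg3b and Reg3g of the fasted libraries. All 14 Paneth genes had a positive change in both authors' deposited tables, with 6 called without and 0 called with tetracycline by DESeq2, against 2.27% and 0.6% of all genes, and 11 and 3 at an unadjusted p under 0.05. Of the 14 enterocyte genes 12 and 11 had a positive change, with 2 and 0 called by DESeq2 and 5 and 3 at an unadjusted p under 0.05. Genes of lymphocytes, among them cells that make interleukin-22, summed to 21212 and 35286 (fasted) against 38768 and 51123 (fed) without tetracycline, and to 59261 and 13306 against 178058 and 48028 with it. The part of these cell types in the Reg changes was not tested.

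Set against the Paneth cell sum, Reg3b of the untreated mice came to 118% and 23.7% when fasted and to 3.8% and 6.71% when fed. With tetracycline it came to 1.35% and 57.0% when fasted and to 1.47% and 1.42% when fed. On this scale the separation of fasted from fed libraries was lost with tetracycline, and the fasted libraries lay farther apart than in normalized counts in both tables. For Reg3g the values were 29.9% and 5.71% against 2.85% and 4.56% without tetracycline, and 0.212% and 2.67% against 1.15% and 0.872% with it.

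Pancreatic acinar cells can express Reg1, Reg2 and Reg3 genes, and their enzymes were therefore summed as well. The resolved acinar genes held 2759 and 2542 normalized counts (fasted) against 1716 and 3165 (fed) without tetracycline, and 3382 and 1695 against 1940 and 2528 with it. These sums overlap between fasted and fed libraries in both tables, but Rnase1 and Cela1 made up most of them. Without these 2 genes, a step chosen after the values had been seen, the fasted libraries held 417 and 454 and the fed ones 227 and 1333 without tetracycline, and 813 and 714 against 267 and 815 with it. Fed library 2 without tetracycline stood apart, being the highest of the 4 libraries in 12 of 14 resolved acinar genes. It was also the highest in Reg1 (100748) and Reg3a (20109), and leaving it out moved the change of Reg1 to 0.16 and that of Reg3a to -0.79. With tetracycline fed library 2 was the highest in 10 of 15 acinar genes and in Reg1. The part of acinar RNA in the values of Reg1 and Reg3a was not tested. Of 15 acinar genes 0 were called in either of the authors' deposited tables by DESeq2, against 2.27% and 0.6% of all genes. An unadjusted p under 0.05 was listed for 6 and 1 of these acinar genes, with median log2 changes of -1.57 and -0.27. The trypsinogen Prss2 held 90.4 normalized counts in fed library 2 without tetracycline and 7.94 in fed library 1, and Ptf1a, a transcription factor that defines acinar cells, was listed in neither table.

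**Figure D4:**
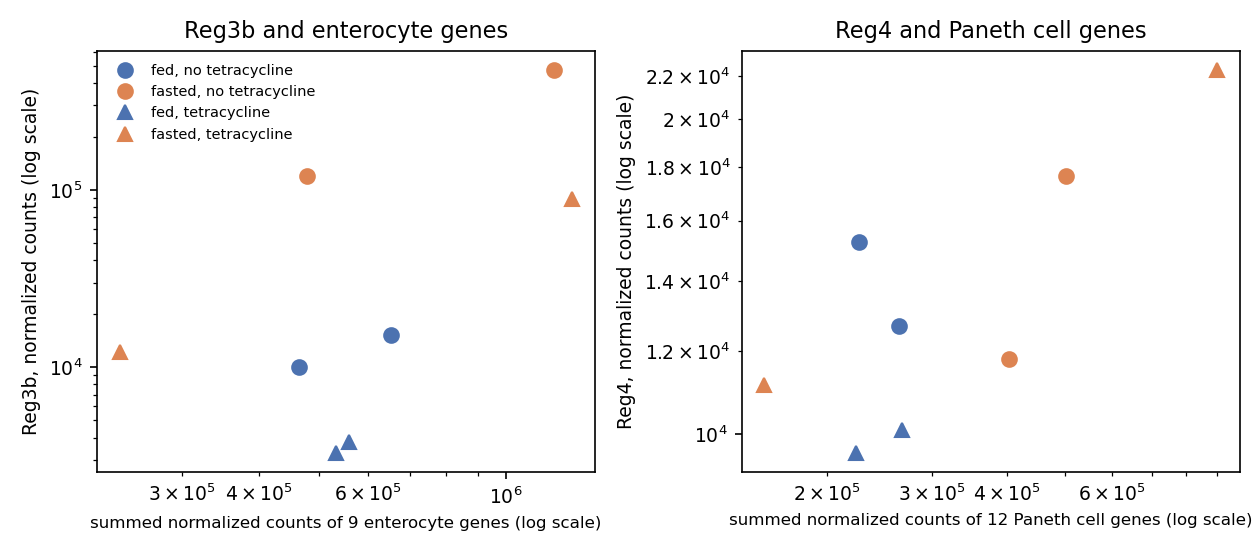
Normalized counts of Reg3b against the summed normalized counts of 9 enterocyte genes (left) and of Reg4 against those of 12 Paneth cell genes (right), 1 point per library, on log scales; blue is fed, orange fasted, circles without and triangles with tetracycline. Of the 4 fasted libraries 1 lies within the range of fed enterocyte sums (478022, beside a fed library at 463460), and the highest Reg4 value (22302) belongs to the library with the highest Paneth sum (901566).

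The signalling genes that act upstream of Reg3 transcription were read from lists. Of 20 genes of interleukin-22, interleukin-6 family and STAT3 signalling with a mean of at least 1, 18 and 16 had an adjusted p in the authors' deposited tables, and 1 passed without tetracycline (higher) and 0 passed with it by DESeq2, against 2.27% and 0.6% of all genes. An unadjusted p under 0.05 was listed for 2 and 3 of them. Their median log2 changes were 0.30 and -0.25, beside 0.02 and -0.02 over all genes of such a mean. The one that passed was Socs3, the feedback inhibitor that STAT3 induces. Its fasted libraries held 2502 and 1166 normalized counts and its fed libraries 394 and 526 without tetracycline, and 501 and 790 against 1057 and 600 with it. Socs3 thus shared with Reg3g a separation of fasted from fed libraries without tetracycline and an overlap with it.

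The authors' deposited table without tetracycline gave Socs3 a log2 change of 2.0 (SE 0.38, adjusted p = 3.96e-05), and the one with tetracycline -0.36 (SE 0.50). The difference of these was -2.36 (SE 0.63, adjusted p = 0.269 by the Wald test over all genes, on the errors of the DESeq2 fits). Stat3 itself had 0.54 (SE 0.36) and -0.48 (SE 0.45), and the kinases Jak1 and Jak2 had 0.13 and 0.30 without and -0.27 and -0.40 with tetracycline, none past the threshold. The cytokine genes Il22 and Il17a were listed in neither table.

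Of 19 genes of MyD88 and NF-kappaB signalling, 0 passed in either table of the authors by DESeq2, against 2.27% and 0.6% of all genes, and 1 without and 0 with tetracycline had an unadjusted p under 0.05. Their median log2 changes were 0.17 and -0.15. In the authors' deposited tables the inhibitor Nfkbia had log2 changes of 0.45 (SE 0.32) and 0.40 (SE 0.40), Nfkb1 -0.10 and -0.28, Relb 0.19 and -0.15 and the receptor kinase Irak1 0.02 and -0.02.

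Reg proteins are cut by trypsin-like proteases, and Extl3 has been described as a receptor for them. A list of these, with Egfr and the metalloproteinase Mmp7, had 6 measured genes. By DESeq2 in the authors' deposited tables, 1 passed without and 0 with tetracycline, against 2.27% and 0.6% of all genes, and 2 and 1 had an unadjusted p under 0.05. The list medians were -0.86 and 0.11. The gene that passed was Mmp7, the Paneth cell protease that activates defensins, with 2.07 (SE 0.26, adjusted p = 1.72e-12 by DESeq2) and 1.93 (SE 0.65, adjusted p = 0.246). Extl3 had 0.03 (SE 0.27) and 0.14 (SE 0.39) and Egfr 0.13 and 0.08 in the same tables. The trypsinogens had deposited log2 changes below 0 in the authors' table without tetracycline, with fasted and fed libraries that overlapped: Prss2 at -2.02 (SE 1.0) and, named after their values had been seen, Try4 at -1.76 and Try5 at -2.06. With tetracycline the authors' deposited table gave Prss2 -0.27, Try4 -0.09 and Try5 2.86 (SE 1.49), and Try5 held 17.3 and 35.8 normalized counts when fasted against 0 and 7.55 when fed. None of the 3 was called in either table.

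Epithelial defence genes that are often measured beside Reg3 were counted last. Of 19 measured without tetracycline, 15 had an adjusted p and 4 passed, against 2.27% of all genes, and all were higher in fasted crypts, namely the Paneth and goblet cell products Ang4 and Itln1 and, named here after their values had been seen, the acute-phase gene Saa1 and the nitric oxide synthase Nos2. Of 17 measured with tetracycline, 12 had an adjusted p and 2 passed, against 0.6% of all genes, and both were lower, the oxidase Duox2 and the cornified-envelope gene Sprr2a3. The median changes of the list were 0.84 and -0.45 beside 0.02 and -0.02 over all genes. These counts are from the authors' deposited tables by DESeq2.

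The authors' deposited tables gave Duox2 0.88 (SE 1.17) without and -1.87 (SE 0.41, adjusted p = 0.00196) with tetracycline, and Sprr2a3 -0.66 (SE 1.30) and -2.90 (SE 0.63, adjusted p = 0.00168). They gave Ang4 1.28 (SE 0.25, adjusted p = 6.25e-05) and 1.40 (SE 0.78), and Itln1 1.05 (SE 0.27, adjusted p = 0.00907) and 1.12 (SE 0.73). With tetracycline Ang4 held 43251 and 6254 normalized counts (fasted) against 7091 and 11659 (fed), and Itln1 212226 and 36802 against 48737 and 65778. For both genes fasted library 2 with tetracycline lay below both fed libraries. Duox2 held 2604 and 393 normalized counts (fasted) against 761 and 862 (fed) without tetracycline, and 127 and 127 against 457 and 470 with it. Its fasted library 1 without tetracycline, the one richest in Reg3b, was thus the highest for Duox2, while the second lay below both fed libraries.

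**Figure D5:**
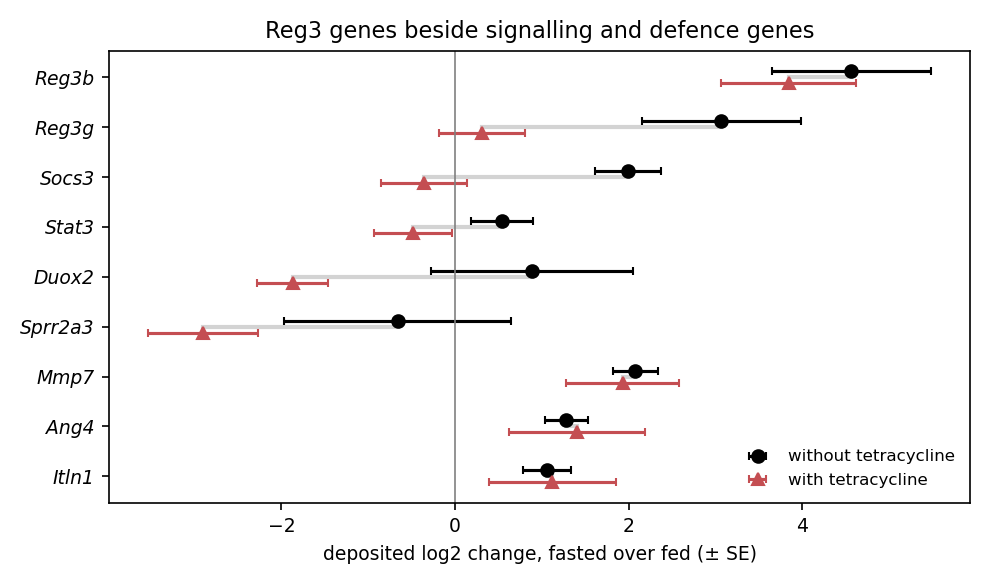
Deposited log2 change, fasted over fed, with its standard error as bars, for Reg3b, Reg3g and 7 signalling and defence genes, in black circles without and red triangles with tetracycline; grey lines join both values of a gene. Reg3g moves from 3.06 to 0.31 and Socs3 from 2.0 to -0.36, whereas Mmp7 lies at 2.07 and 1.93.

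The genes with the most similar pattern over the 4 groups were found for each member by the Euclidean distance between centred log2 group means among 12491 genes with a symbol and a mean of at least 50 in both tables. Among the nearest to Reg3b were the monocarboxylate transporter gene Slc5a8 (distance 2.22), Clu (2.31), the metallothionein gene Mt2 (2.36) and Slc6a18 (2.39). Nearest to Reg3g were Nos2 (0.91), the kinase gene Ptk6 (1.46), Slc5a8 (1.94), Prss30 (1.96) and the phosphate transporter gene Slc34a2 (1.99). Reg3g ranked 14 among the neighbours of Reg3b at 2.91, and Reg3b ranked 36 among those of Reg3g. These 4 neighbours of Reg3b were farther from it than the 5 of Reg3g were from Reg3g.

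Nos2 shows what the likeness to Reg3g rests on. Its fasted libraries held 9071 and 1415 normalized counts and its fed libraries 236 and 392 without tetracycline, and 109 and 164 when fasted and 249 and 122 when fed with it. The authors' deposited tables gave it log2 changes of 4.06 (SE 1.19, adjusted p = 0.0336) and -0.45 (SE 0.58). Without fasted library 1 the change without tetracycline was 2.17.

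The remaining members had closer neighbours. Reg3a was nearest to Fhl1 (0.20), Cpn1 (0.22), Plac9 (0.26), S100a6 (0.31) and Cd34 (0.32). Reg1 was nearest to Emid1 (0.061), AI467606 (0.064), Limd2 (0.080), Cd68 (0.083) and Il10ra (0.087). Reg4 was nearest to Fxyd3 (0.033), Avpi1 (0.050), Cyp3a59 (0.054), Egfl7 (0.061) and Bcas1 (0.062). The likeness is over 4 group means and carries no test.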

How the data were processed

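The material was 2 tables of the authors' own comparisons of fasted with fed crypts, 1 without and 1 with tetracycline. Per the submitters' processing notes, Salmon, DESeq2 and the build mm10 were used; versions, roles and the annotation release are not given in the sources used here. The authors' mean is a signal, the average over a table's libraries of counts divided by size factors. Fold changes and standard errors were deposited as log2 values, the deposited Wald statistic is a score (change over error), and the deposited p-values carry a Benjamini-Hochberg adjustment. These relations held in the deposited values. There are 0 further per-sample columns left unused.

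The deposited gene identifiers matched GENCODE M21 for 99.29% of genes without their version and for 0.05094% with it, so that release is not the one the authors used and served for positions and lengths only. Promoter stretches came from RefSeq on GRCm38.p6, with all 7 Reg genes matched.

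A deposited mean adds up whole counts, each multiplied by a step that is constant within a library. The steps gave 4 libraries per table, and each Reg gene resolved to 1 set of whole counts from which the authors' DESeq2 model, rewritten here, gave back the deposited change to within 1e-12. Among 300 further genes per table resolved from the mean alone, 300 and 300 gave it back, with the side that is higher at a positive change as the base level of the fit. If the authors kept DESeq2's alphabetical default, this base is the fasted side, the reading used here. The most abundant marker genes did not resolve and are left out of the sums. The analysis plan allowed for values per library; as the tables hold comparisons, the authors' Wald tests took the place of an own fit, and calls are the authors' adjusted p under 0.05.

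Group means were rebuilt from the authors' mean and fold change. The fasting changes were subtracted and tested by a two-sided Wald test adjusted over all genes with an adjusted p in both tables, and intervals are 95% normal intervals. Scripts were tested on simulated data and run in Python 3.11.15 with numpy 2.4.6, scipy 1.17.1, pandas 2.3.3, biopython 1.88 and matplotlib 3.10.9. The members and gene lists were chosen with earlier results of these data known. Named genes are the Reg genes, up to 4 genes per pathway list (called ones by adjusted p, then the most abundant) and the 5 genes nearest to each member, of which 1 is not reported here. Alternatives changed the pseudocount, centring, threshold, adjustment, length and filter, and left out each library in turn.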

Additional observations from a re-analysis of the deposited data

Results flagged for a closer look

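Reg2, a Reg gene of the same cluster, stood out because its fasting change pointed in opposite directions in the authors' deposited tables, with every library of a side on the same side of the other group's libraries in each. Fasted libraries held 8 and 7 counts and fed ones 3 and 1 without tetracycline, and 6 and 4 against 17 and 10 with it. The change with minus the change without tetracycline was -3.12 on the log2 scale (SE 2.11, interval -7.25 to 1.02). Reg2 has no adjusted p without tetracycline in the authors' deposited table, so it was not among the genes over which the difference was adjusted, and the interval of the difference includes 0.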

How the results depend on the processing

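Of 128 alternative values (the pseudocount, centring, threshold, adjustment, length and filter), 125 kept their direction, their side of the threshold or their size. The pseudocounts are small beside the counts of the members and could hardly change a value, so this tally does not measure robustness. A count of 2 members called in place of 3 without tetracycline, when all rows were adjusted together, was among those taken as kept. Reg3g without tetracycline kept its log2 change of 3.06 but had an adjusted p of 0.0554 when all rows were adjusted together, an adjustment over more genes. At an adjusted p under 0.01, 1 member was called without tetracycline in place of 3. Without length, 2 members changed place in fed crypts without tetracycline. Dividing the statistic of the difference by its robust SD called 32 genes in place of 4 and brought the adjusted p of Reg3g to 0.0887 on the authors' DESeq2 errors, and testing only genes with a mean of at least 50 called 1; no member was called under either. Leaving out each library in turn, chosen for the tetracycline levels after seeing the data, kept 55 of 80 values within their error; the cause of the others was not tested. The fasting changes without tetracycline ranged from 3.25 to 5.24 for Reg3b, 1.69 to 3.76 for Reg3g, -1.88 to -0.79 for Reg3a, -1.26 to 0.16 for Reg1 and -0.24 to 0.34 for Reg4. With tetracycline they ranged from 1.78 to 4.66 for Reg3b, -0.36 to 0.77 for Reg3g, -0.89 to 0.65 for Reg3a, -2.05 to -0.59 for Reg1 and 0.18 to 1.18 for Reg4. The tetracycline levels in fed crypts ranged from -2.12 to -1.52 for Reg3b, -2.09 to -1.63 for Reg3g, -1.50 to -0.42 for Reg3a, 0.10 to 1.50 for Reg1 and -0.65 to -0.38 for Reg4. In fasted crypts they ranged from -4.69 to -1.31 for Reg3b, -5.38 to -3.31 for Reg3g, -0.58 to 0.96 for Reg3a, -0.77 to 0.69 for Reg1 and -0.47 to 0.53 for Reg4. No paired analysis was possible because the tables hold comparisons whose libraries carry no number from the labels. The direction of every change rests on the reading of the tables' names, and 2 libraries per side set the precision.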
